A study of Mus musculus with 6 samples.

Results

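Tumour-infiltrating cells of intact Mtdh knockout (KO) mice were set against those of intact wild-type (WT) control mice, which are the groups of the series that received no marrow. Each group is 1 library, and together they hold 13299 of the 37992 cells kept from all 6 libraries, with 6604 from intact KO and 6695 from intact WT. Both groups were female mice engrafted with Py8119, a mouse mammary tumour cell line, and tumours were taken 4 weeks after injection, dissociated and sorted for live cells with surface CD45, the antigen carried by blood-derived cells. About 15000 sorted cells were loaded per library for droplet 3' sequencing. The injected tumour line was the same in both groups, and the labels give no change of Mtdh in it. Strain, age, the deleted part of Mtdh, and the number of mice or tumours behind a library are not given in the sources used here. A second pair, KO marrow in irradiated KO hosts against WT marrow in irradiated WT hosts, in which the tumour was implanted 8 weeks after the transfer, shares no library with the intact pair. Its values are set beside the intact ones.

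Mtdh encodes metadherin, a membrane and nuclear protein that binds the nuclease SND1 and is known for promoting the growth and spread of breast tumours. Many of the genes below belong to the response to interferon gamma, a cytokine made by activated T and NK cells. Signals from its receptor induce the transcription factor IRF1 and drive guanylate-binding proteins (Gbp genes), immunity-related GTPases such as Iigp1 and Igtp, the T cell attracting chemokines CXCL9 and CXCL10, and the machinery that presents antigen on MHC molecules.

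With 1 library on a side there is no replicate, and no test between groups was made. A level is the summed UMI count (distinct captured transcripts) of a gene per 1000000 UMIs of a cell class in 1 library, written CPM. Intervals are exact 95% intervals, Clopper-Pearson for shares and ratios and Poisson for levels, and they cover counting error only. UMIs of 1 gene can come from few cells, so these intervals are narrower than the spread between mice would be. The libraries held 122390055 UMIs in intact KO and 142779550 in intact WT, with medians of 16717.5 and 18981 UMIs per kept cell and median mitochondrial shares of 2.89% and 2.93%. They shared 19 cell barcodes, 0.268% of the smaller library. C1q transcripts, which macrophages make, stood at 554 CPM in the T, NK and B cells of intact KO and at 1121 CPM in those of intact WT, which is 4.79% and 8.04% of the macrophage level. Free RNA in the droplets was thus not equal in the libraries, and its expected level is given beside some of the results it touches.

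Mtdh itself (ENSMUSG00000022255, mm10 chromosome 15, 34082694 to 34145624, plus strand) was lower in intact KO in 11 of 11 immune classes. It stood between 9.44 CPM, in monocytes, and 43.5 CPM, in B cells, in the KO library, and between 59.6 CPM, in neutrophils, and 131 CPM, in B cells, in the WT library. The free RNA level of Mtdh was 2.52 CPM in KO and 11.5 CPM in WT. The B cells therefore had the highest Mtdh level of the KO immune classes, with an interval of 35.2 to 53.1 CPM that does not overlap the macrophage interval of 14.2 to 15.8. That B cell interval does overlap those of regulatory T cells (13.1 to 59.8), gamma-delta T cells (4.23 to 39.8) and neutrophils (2.54 to 36). In KO marrow in KO host, B cells stood at 16 CPM (5.88 to 34.9) and NK cells at 18.4 CPM. A 3' count can lie outside the deleted part of a gene, so remaining UMIs say nothing of a remaining protein. In the mesenchymal or tumour class Mtdh was at 468 CPM in KO and 403 CPM in WT, a ratio of 1.16 (1.1 to 1.22). Snd1, the partner gene, was at 147 and 128 CPM in macrophages and at 112 and 105 CPM in B cells of KO and WT.

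The intact KO library held larger shares of lymphocytes, monocytes and mature dendritic cells and a smaller share of macrophages than the intact WT library. B cells, which make antibody and present antigen, made up 9.39% of KO cells (8.7 to 10.1) and 2.87% of WT cells (2.48 to 3.3), a ratio of 3.27 (2.78 to 3.87). Monocytes, the blood precursors of many tumour macrophages, were at 2.2% (1.86 to 2.58) against 0.508% (0.352 to 0.709), a ratio of 4.32 (2.96 to 6.48). Mature dendritic cells, the migratory state that carries antigen to lymph nodes, were at 1.01% against 0.358%, a ratio of 2.83 (1.75 to 4.72). These 3 classes lie apart from equal shares by more than counting error.

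T and NK cells together were 12.5% of KO cells (11.7 to 13.3) and 4.06% of WT cells (3.6 to 4.56). CD4 T cells without Foxp3 were at 1.61% against 0.568%, a ratio of 2.83 (1.94 to 4.21). Regulatory T cells (Treg), which carry Foxp3 and restrain other T cells, numbered 45 and 15 cells, a ratio of 3.04 (1.66 to 5.87). NK cells, innate killers without a rearranged receptor, numbered 90 and 34, a ratio of 2.68 (1.79 to 4.11). Gamma-delta T cells, a lineage common in barrier tissue, numbered 51 and 43, and their ratio of 1.2 had an interval of 0.786 to 1.85 that includes equality. CD8 T cells were at 4.78% (316 cells) and 1.22% (82 cells), a ratio of 3.91 (3.06 to 5.04).

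Among the 825 T and NK cells of KO and the 272 of WT, the composition was closer. CD8 T cells were 38.3% (35 to 41.7) of them in KO and 30.1% (24.8 to 36) in WT, and these intervals overlap. CD4 T cells were 12.8% and 14%, Treg 5.45% and 5.51%, and NK cells 10.9% and 12.5%. Gamma-delta T cells differed by more than counting error, at 6.18% (4.64 to 8.05) in KO and 15.8% (11.7 to 20.7) in WT. A further 26.3% and 22.1% met no gate and stayed unassigned.

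Classes near equal shares were neutrophils, conventional dendritic cells (cDC) and the mesenchymal or tumour cells. Neutrophils were at 1.08% in KO and 1.3% in WT, a ratio of 0.827 (0.596 to 1.15). The cDC were at 1.65% and 1.27%, a ratio of 1.3 (0.97 to 1.75), with 35 and 29 cDC1, the subset that presents antigen to CD8 T cells, and 58 and 50 cDC2, which mainly serve CD4 T cells. Mesenchymal or tumour cells were at 3.24% and 3.5%, a ratio of 0.927 (0.767 to 1.12). Plasmacytoid dendritic cells numbered 3 in KO and 0 in WT, where 0 of 6695 cells allows a share of up to 0.0448% by a floor of 3 counts and of 0.0551% by the exact interval, and no plasma cell was found in either library. Macrophages were at 65.9% (64.7 to 67) and 84.8% (83.9 to 85.6), a ratio of 0.777 (0.747 to 0.809).

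An unnamed cluster with markers of both T cells and macrophages held 133 KO cells, 2.01% of that library (1.69 to 2.38), and 3 WT cells, 0.0448%. Of the 133 KO cells, 111 had a UMI of Cd3e and 132 had one of C1qa. Their median of 24240 UMIs stood above the medians of 19437.5 in KO macrophages and 7392 in KO CD8 T cells. These cells were counted in no class, and whether they are doublets was not tested. With the cells of highest doublet score kept, an unnamed cluster with both T or NK and myeloid scores held 273 KO and 54 WT cells. Other unnamed clusters and cells of the B lineage that met no gate were also left out of the classes.

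Shares add to a fixed total, so the macrophage difference enters each of the others. With macrophages left out of the denominator, the KO to WT ratio was 1.46 for B cells, 1.93 for monocytes, 1.74 for CD8 T cells, 1.26 for CD4 T cells and for mature dendritic cells, 1.36 for Treg and 1.2 for NK cells. The intervals then include equality for mature dendritic cells (0.782 to 2.11), CD4 T cells (0.864 to 1.88), Treg (0.743 to 2.62) and NK cells (0.799 to 1.83), and exclude it for B cells (1.24 to 1.73), monocytes (1.32 to 2.89) and CD8 T cells (1.36 to 2.25). On that denominator cDC turned to 0.58 and gamma-delta T cells to 0.537, below equality, and neutrophils and mesenchymal or tumour cells went further below it, to 0.369 and 0.414.

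In the second pair the ratio went the same way for B cells at 17.2 (6.46 to 64.4, with only 4 B cells in the WT chimera), for monocytes at 8.57 (6.48 to 11.5), for mature dendritic cells at 1.72 (1.2 to 2.51) and for CD8 T cells at 7.19 (6.03 to 8.62). It was near equality for CD4 T cells at 0.885 (0.623 to 1.26) and NK cells at 0.818 (0.519 to 1.29), and 1.49 (0.949 to 2.39) for Treg. Mesenchymal or tumour cells were at 0.477 (0.406 to 0.559). For CD4 T, NK, CD8 T, B and mesenchymal or tumour cells, the intervals of the ratio in the 2 pairs do not overlap. That difference between the pairs was not tested over replicate libraries. These ratios are of shares of all kept cells. With macrophages left out of the denominator, the second pair gave 0.985 (0.685 to 1.44) for mature dendritic cells and 0.855 (0.544 to 1.37) for Treg. It gave 0.507 (0.356 to 0.722) for CD4 T cells and 0.468 (0.297 to 0.738) for NK cells, below equality. The ratio stayed above equality for B cells at 9.82, monocytes at 4.91 and CD8 T cells at 4.11.

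**Figure D1:**
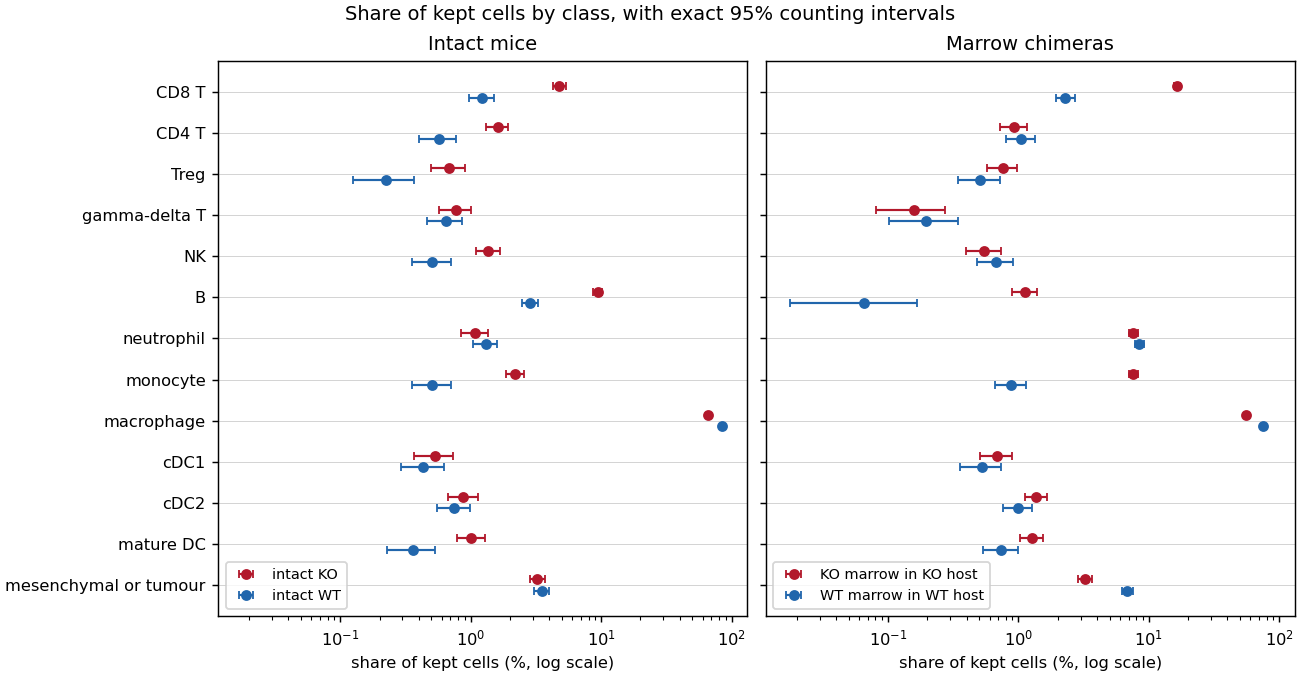
Share of kept cells in each class, in percent on a log axis, for the intact pair and the chimera pair (KO marrow in KO host, WT marrow in WT host), 1 library per point, with exact 95% counting intervals as bars. In the intact pair the KO points for B cells (9.39%) and monocytes (2.2%) lie to the right of the WT points (2.87% and 0.508%), while the neutrophil, cDC1 and cDC2 intervals of KO and WT overlap.

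Genes with a shared difference over classes were counted in the 6 classes with at least 50 cells in each intact library. A gene counts as 2-fold higher or lower where the ratio of CPM, with 10 CPM added to each side, is at least 2, among genes with at least 30 UMIs over both libraries. The interferon-linked genes Cxcl9 and Gbp2 were higher in 5 classes each, Cxcl9 in 5 of the 5 where it was counted and Gbp2 in 5 of 6, as was Irf1. Looking at all 11 immune classes and the mesenchymal or tumour class, Cxcl9, Cxcl10 and Irf1 had a higher level in KO in 12 of 12 classes. Gbp2 had it in 10 of 12, with CD8 T and NK cells as the exceptions. The count over 12 classes takes any difference, such as a log2 ratio of 0.15 for Cxcl10 in neutrophils. These genes were picked by their count in the 6 classes, which are among the 12, so the wider count is no separate result. The share of all genes that reach such counts was not computed. Cxcl9 was at 1412 CPM in KO macrophages, and its lowest level in the 12 KO classes was 20.2 CPM. C1q transcripts put free RNA at 5.79% of the level over all cells in KO and at 8.9% in WT. Both counts of classes were made on levels with free RNA left in, and they were not repeated with it taken off. Ly6a, which encodes the surface antigen Sca-1, and Cxcl10 were 2-fold higher in 4 of 6 classes. Kdm6b, a histone demethylase, Odc1, the first enzyme of polyamine synthesis, and Nr4a2, a nuclear receptor induced by activation, were 2-fold higher in 5 of 6.

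**Figure D2:**
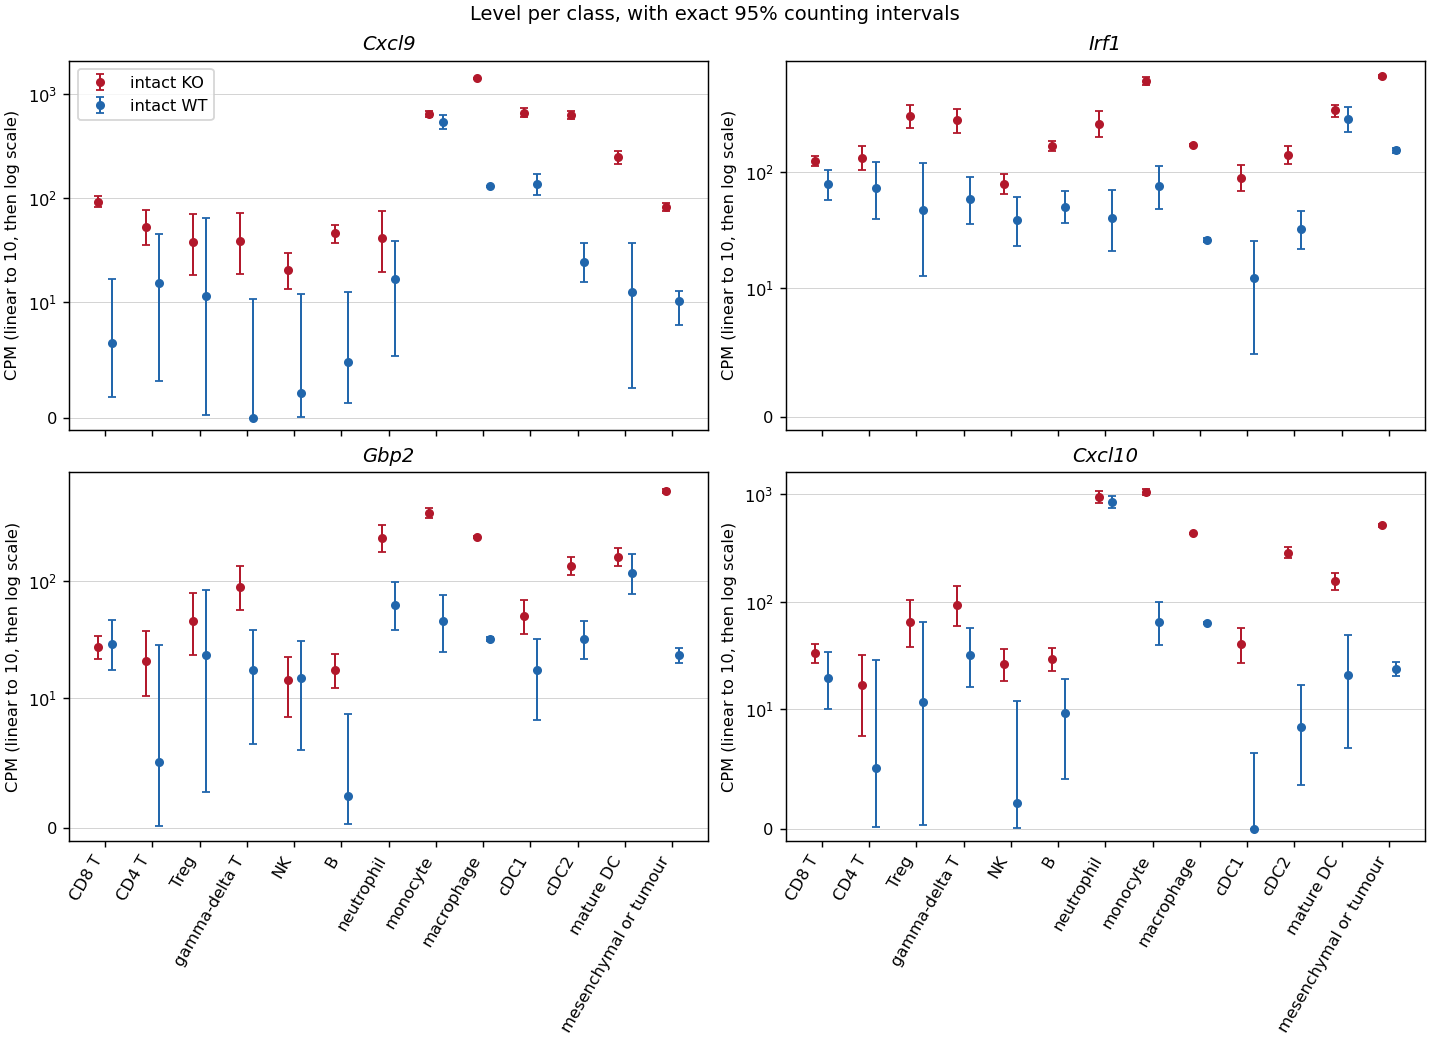
Levels of Cxcl9, Irf1, Gbp2 and Cxcl10 in CPM, on an axis that is linear to 10 and a log scale above, in 13 cell classes, cDC1 and cDC2 among them, of the intact KO and intact WT libraries, with exact 95% Poisson counting intervals. KO points lie above WT points for Cxcl9, Irf1 and Cxcl10 in the classes shown, and Gbp2 is near equal in CD8 T and NK cells. Free RNA is not taken off these levels.

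The promoters of 4 of these genes, Cxcl9, Irf1, Gbp2 and Cxcl10, are shown because promoters are the regions through which interferon-induced transcription factors are known to act. Each is the 250 bases before the annotated start from RefSeq (GRCm38.p6, the build of mm10), written 5′ to 3′ on the gene's strand. Capitals mark a match, on either strand, to TTCNNNGAA (a GAS-type motif) or to TTTC, any 2 bases and TTTC again (an ISRE-like motif), and the motifs do not overlap each other here. The windows are chr5:92328080-92328329 on the minus strand for Cxcl9, chr11:53769764-53770013 on the plus strand for the first start of Irf1, chr3:142620413-142620662 on the plus strand for Gbp2 and chr5:92348890-92349139 on the minus strand for Cxcl10.
Cxcl9: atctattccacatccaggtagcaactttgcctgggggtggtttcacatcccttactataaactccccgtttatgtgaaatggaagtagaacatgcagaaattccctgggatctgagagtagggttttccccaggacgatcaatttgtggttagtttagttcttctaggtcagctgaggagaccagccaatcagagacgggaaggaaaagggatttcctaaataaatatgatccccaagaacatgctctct
Irf1: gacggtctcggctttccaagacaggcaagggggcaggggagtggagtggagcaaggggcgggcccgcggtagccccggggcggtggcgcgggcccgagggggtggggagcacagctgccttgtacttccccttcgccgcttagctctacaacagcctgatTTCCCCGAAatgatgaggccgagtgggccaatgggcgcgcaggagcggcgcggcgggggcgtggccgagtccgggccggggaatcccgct
Gbp2: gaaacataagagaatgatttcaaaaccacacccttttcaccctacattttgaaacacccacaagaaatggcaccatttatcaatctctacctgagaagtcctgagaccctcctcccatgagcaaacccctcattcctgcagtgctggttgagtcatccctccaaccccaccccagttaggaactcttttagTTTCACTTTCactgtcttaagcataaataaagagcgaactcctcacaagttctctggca
Cxcl10: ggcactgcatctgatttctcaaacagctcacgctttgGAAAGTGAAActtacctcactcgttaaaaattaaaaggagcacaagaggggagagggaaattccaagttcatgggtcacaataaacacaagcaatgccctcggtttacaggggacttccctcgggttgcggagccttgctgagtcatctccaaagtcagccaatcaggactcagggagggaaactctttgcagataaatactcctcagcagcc

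Irf1 held 1 GAS-type match, 90 bases before its start, and a second listed start of Irf1 held none. Gbp2 held an ISRE-like match 59 bases before its start and Cxcl10 one at 213 bases. The Cxcl9 window held neither, which says only that these letters are not in these 250 bases. Of all 32851 promoter windows, 7.02% hold the GAS-type motif and 2.98% the ISRE-like motif. Of the 24 interferon gamma induced genes, 16 were in the promoter table, 8 with a GAS-type and 11 with an ISRE-like match. Of 23 type I interferon induced genes 16 were in the table, 3 and 8 with such matches. A list gene was counted if any of its listed starts held the motif. These counts are per gene and the shares of all windows are per window, so they are not on the same unit. Matches describe sequence and are not measured binding sites.

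Genes lower over many classes were of another kind. F13a1 (coagulation factor XIII A) and Fcrls (an Fc receptor-like protein), both typical of resident-type macrophages, were 2-fold lower in 6 of 6 classes, and Pf4 in 5 of 5. Cmss1 and AY036118 were lower in 6 of 6 and Cdk8, a kinase of the Mediator complex, in 5 of 6. Cmss1, AY036118 and Cdk8 each had a lower level in KO in 12 of 12 classes, the mesenchymal or tumour class among them. The lower genes too were picked by their count in the 6 classes, and the share of all genes with such counts was not computed. With 1 library a side, a difference between the libraries cannot be told apart here from one between the genotypes. AY036118 stood between 69.6 and 179 CPM in the 12 KO classes and between 298 and 763 CPM in the 12 WT classes, so these library ranges do not overlap. As F13a1 and Fcrls are macrophage genes, their levels in other classes are read beside free RNA. With the free RNA level taken off, F13a1 and Fcrls turned higher in KO B cells, with log2 ratios of 0.47 and 0.34. Fcrls also turned in cDC, at 0.98, and F13a1 in mesenchymal or tumour cells, at 0.07.

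**Figure D3:**
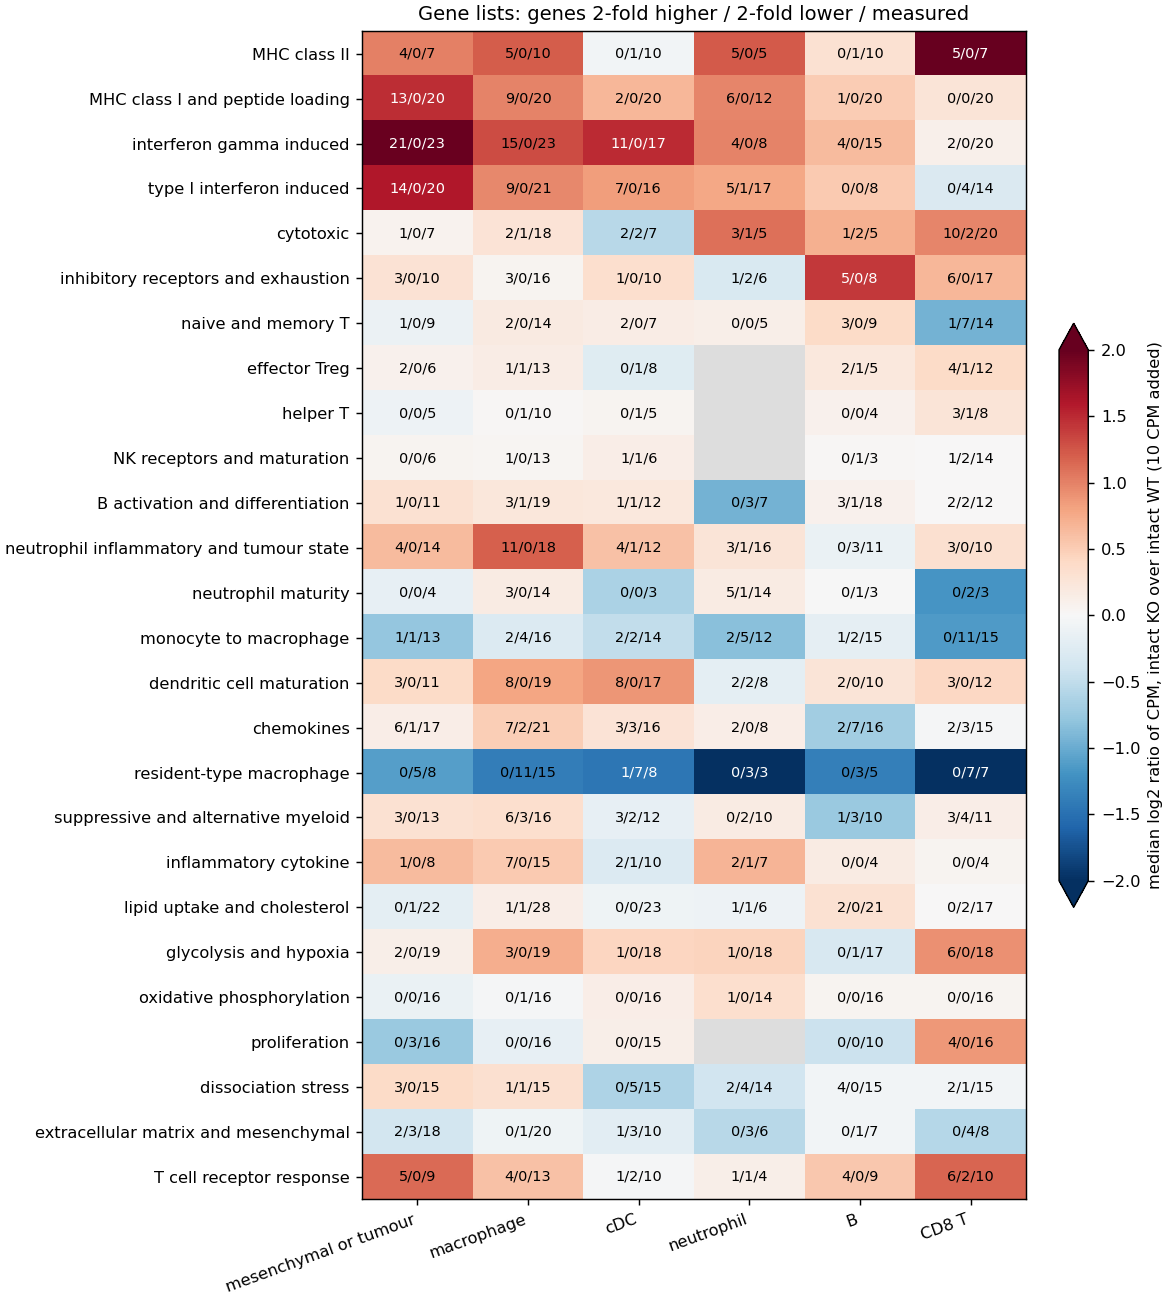
Median log2 ratio of intact KO over intact WT (CPM with 10 added) for the gene lists in rows and the 6 counted classes in columns, with the number of list genes at least 2-fold higher and lower of those counted. The interferon gamma and MHC class I rows are highest in mesenchymal or tumour cells, with medians of 1.98 and 1.47, and the resident-type macrophage row is below 0 in the 6 classes.

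In the mesenchymal or tumour cells, interferon-linked genes and the machinery of MHC class I were higher in KO. Most genes of the matrix and proliferation lists lay within 2-fold, with median log2 ratios below 0, at -0.36 and -0.74. The interferon gamma list had its highest median of the 6 counted classes here. The class is named from Krt8, Krt18, Sparc, collagens and related genes, and it can hold Py8119 cells as well as stromal cells of the mouse. Its cells carried little Ptprc, the CD45 gene, at 11.4 CPM in KO and 14.5 CPM in WT, although the labels describe a CD45 sort. Iigp1, a GTPase that attacks pathogen vacuoles, had 4779 UMIs in 164 of 214 KO cells and 44 UMIs in 21 of 234 WT cells. That is 716 against 5.59 CPM, a ratio of 128 (95.2 to 176), and the second pair gave 588 against 4.69 CPM. Gbp2 was at 589 and 23.3 CPM, a ratio of 25.3 (21.8 to 29.5), and the chemokine gene Cxcl10 at 515 and 23.6 CPM, a ratio of 21.8 (18.8 to 25.4). Igtp at 127 and 3.18 CPM and Gbp3 at 107 and 4.32 CPM followed. The near-identical Tgtp1 and Tgtp2 can share reads and are uncertain. Tgtp1 had 100 UMIs in KO and 0 in WT, at least 39.3-fold higher against a floor of 3 counts.

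Of 23 interferon gamma induced genes counted in this class, 21 were 2-fold higher in KO and 0 lower, where 1.93% of the 11382 genes counted were higher. Their median log2 ratio was 1.98, beside -0.06 for all genes. Irf1 was at 660 and 153 CPM, and Cd274, which encodes the checkpoint ligand PD-L1, at 22.8 and 3.43. Of 20 type I interferon induced genes, 14 were higher and 0 lower, among them Ifit3 at 81.4 and 3.81 CPM and Bst2, which tethers viruses at the cell surface, at 774 and 153 CPM. Ifit3 and Ifit3b are near-identical and their split is uncertain.

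MHC class I and its peptide supply were also higher in these cells. Of 20 genes, 13 were 2-fold higher and 0 lower, with a median log2 ratio of 1.47. H2-K1, a class I heavy chain with close paralogs, was at 2076 and 472 CPM, a ratio of 4.4 (4.25 to 4.57). B2m, its light chain, was at 2431 and 853 CPM. Tap1, which pumps peptides to class I, was at 63.6 and 5.21 CPM, the immunoproteasome subunit Psmb9 at 130 and 18.4, and Nlrc5, the class I transactivator, at 94.3 and 15.4. MHC class II genes summed to 1527 CPM in KO and 656 in WT, but free RNA alone would bring 1826 and 826 CPM, so both sums lay at or below background.

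Chemokine genes that draw monocytes and neutrophils were higher in the KO mesenchymal or tumour cells. Ccl2 was at 628 and 83.9 CPM, a ratio of 7.49 (6.9 to 8.14), Ccl7 at 206 and 49.1 CPM and Cxcl1 at 1228 and 317 CPM. Of 17 chemokine genes, 6 were 2-fold higher and 1, Pf4, was lower. Cd44, a hyaluronan receptor, was at 792 and 246 CPM.

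Of 18 genes of the matrix and mesenchymal list, 3 were 2-fold lower, 2 higher and 13 within 2-fold in this class, with a median log2 ratio of -0.36, where 0.975% of all genes counted were lower. The 3 lower genes were collagen genes, and Cd44 and Krt18 were the 2 higher. Col1a1, a fibrillar collagen chain, was at 9.74 CPM (12 cells with a UMI) in KO and 145 CPM (100 cells) in WT, a WT to KO ratio of 14.9 (11.6 to 19.4). Col3a1 was at 47.7 and 160 CPM and Postn, a matrix protein of the stroma, at 24.3 and 120 CPM. Serpinh1, the collagen chaperone, had 5 UMIs in KO and 302 in WT, 0.749 against 38.4 CPM, and Cavin3, a caveolar coat protein, was at 37.8 and 236 CPM. Serpinh1 and Cavin3 stood apart from this in the second pair, at 26.2 against 37.3 CPM and 247 against 205 CPM. Vim and Fn1, broad mesenchymal genes, were near equal, at 3795 and 4283 CPM and at 1496 and 1578 CPM. Igfbp7, at 37.6 and 178 CPM, was also among the 5 lowest by ratio. An unnamed cluster outside this class, led by Col1a2, Igfbp7 and Col1a1, with Postn and Col3a1 among its leading genes, held 16 KO and 76 WT cells. With the intact libraries clustered alone, an unnamed cluster with these leading genes held 50 and 214 cells. Whether such cells or their RNA enter the levels of these matrix genes was not tested.

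The proliferation list had a median log2 ratio of -0.74 in these cells, with 0 of 16 genes 2-fold higher, 3 lower and 13 within 2-fold. Of the 16 genes, 0 had a log2 ratio above 0. Of all genes counted, 0.975% were 2-fold lower. Mki67, a marker of cycling cells, was at 38.4 and 104 CPM and Cenpf, a mitotic protein, at 35.5 and 106 CPM. In the second pair that list had a median of 0.01. Epcam gave 61 UMIs in KO, all from 1 cell, and 0 in WT.

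In cDC, interferon gamma induced genes were higher in KO, among them the chemokine genes Cxcl9 and Cxcl10, while class II genes were similar. Of 16 chemokine genes 3 were 2-fold higher and 3 lower, with a median log2 ratio of 0.27, and of 10 inflammatory cytokine genes 2 were higher and 1 lower, with a median of -0.28. Cxcl10 was at 256 CPM (37 cells with a UMI) and 5.21 CPM (7 cells), a ratio of 49 (24.7 to 114), and Cxcl9 at 709 and 72.3 CPM, a ratio of 9.8 (8.07 to 12). Iigp1 was at 157 and 8.47 CPM. Scin, an actin-severing protein, was at 170 and 4.56 CPM, and Upp1, a uridine phosphorylase, at 104 and 0.652 CPM from a single WT UMI, a ratio of 160 (28.4 to 6359). Of 17 interferon gamma induced genes, 11 were 2-fold higher and 0 lower, against 2.12% of the 7909 genes counted, with a median log2 ratio of 1.49 beside -0.02 for all genes. H2-Ab1, a class II chain, was at 10363 and 10749 CPM, and Ciita, the class II transactivator, was lower, at 157 and 386 CPM.

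The maturation list of dendritic cells had 8 of 17 genes 2-fold higher and 0 lower in cDC, with a median of 0.89. Cd274 was at 224 and 73 CPM, and Cd40, the receptor for T cell help, at 44.7 and 16.3 CPM. Il12b, a subunit of the cytokine IL-12, was at 111 and 2.61 CPM, but its 201 KO UMIs came from 8 of 109 cells. Cd86 was near equal at 1211 and 1022 CPM.

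Genes lower in KO cDC, where 2.52% of genes counted were lower, included Tnf at 13.3 and 101 CPM and Egr1, an immediate early factor, at 23.7 and 126 CPM. Ctnnd2 was at 21.5 and 150 CPM, Pid1 at 128 and 546 CPM, and Cd207, the langerin gene, at 1.1 and 45.6 CPM with 13 WT cells carrying it. Fos at 322 and 812 CPM and Dusp1 at 152 and 462 CPM are also immediate early genes. The dissociation stress list, which holds Egr1, Fos and Dusp1, had 5 of 15 genes lower and 0 higher. Macrophage markers summed to 2331 and 4166 CPM in cDC of KO and WT, and their part in these differences was not tested.

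The subsets showed partly separate patterns, given as values because each holds few cells. In cDC1, Il1b was at 1093 and 50.2 CPM, a ratio of 21.8 (15 to 32.7), and Ccl17, a chemokine for CCR4, at 932 and 178 CPM. Ccl22, of the same receptor, had 122 UMIs in 11 KO cells and 0 in WT, at least 32.5-fold higher. Scin was at 284 and 1.73 CPM and Stat4, which relays IL-12 signals, at 187 and 6.93 CPM. In the second pair Il1b went the other way in cDC1, at 628 and 1150 CPM, and Scin was at 15.9 and 21.9 CPM. In these cDC1, markers of mature dendritic cells, Ccl22 among them, summed to 214 CPM in KO and 5.19 CPM in WT, and neutrophil markers to 176 and 31.2 CPM. Their part in the higher genes was not tested. Lower in cDC1 were Mgl2, a lectin of cDC2 and macrophages, at 55.3 and 194 CPM, and Clnk at 36 and 135 CPM.

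In cDC2, Ly6a was at 543 and 20.3 CPM, a ratio of 26.8 (17 to 44.9), and Cxcl9 at 628 and 24.5 CPM, a ratio of 25.6 (16.9 to 40.7). The second pair had Ly6a at 1183 and 76.5 CPM and Cxcl9 at 1152 and 3.23 CPM in cDC2. Cxcl10, at 286 and 8.53 CPM, and Iigp1, at 155 and 3.2 CPM, were also among the 5 highest by ratio. Tnf was at 4.41 and 115 CPM, lower in KO with 4 and 108 UMIs. Pid1, at 112 and 725 CPM, and Egr1, at 20.9 and 165 CPM, were lower as well. In cDC2 the macrophage marker sum was 1747 CPM in KO and 5222 CPM in WT, beside free RNA levels of 1394 and 3927 CPM, and Pid1 is also among the leading genes of macrophage clusters. Their part in these values was not tested.

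Mature dendritic cells (67 and 24) are given by single genes, since no list was counted with 24 WT cells. The class II genes summed to 14429 CPM in KO and 7511 in WT, beside free RNA levels of 1826 and 826 CPM. H2-Ab1 was at 1876 and 514 CPM, a ratio of 3.65 (3.03 to 4.42), and Cd86, which costimulates T cells, at 1411 and 749 CPM, a ratio of 1.88 (1.61 to 2.22). Pdcd1lg2, the gene of PD-L2, was at 367 and 151 CPM. Cxcl9 was at 247 and 12.5 CPM with 3 WT UMIs, a ratio of 19.7 (6.64 to 96.3). Ccr7, which guides cells to lymph nodes, was at 2735 and 2062 CPM, Fscn1 at 1477 and 1635, Il12b at 809 and 937 and Ccl22 at 1728 and 2526. Plet1 at 128 and 4.18 CPM and Vps37b at 169 and 8.36 CPM were higher, and Ankrd33b at 19.6 and 251 CPM lower. Markers of B cells summed to 126 and 8.36 CPM and those of macrophages to 2696 and 1840 CPM, and their part in these values was not tested.

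In monocytes (145 and 34), where no list was counted, the named genes included inflammatory and interferon-linked genes that were higher in KO, and Chil3 and Vcan, which were lower. Cxcl10 was at 1044 CPM from 62 cells and 64.8 CPM from 2 cells, a ratio of 16.1 (10.4 to 26.5), and Irf1 at 605 and 74.5 CPM, a ratio of 8.12 (5.37 to 12.9). The IL-1 receptor antagonist gene Il1rn was at 539 and 29.2 CPM, and AA467197, a gene also called Nmes1, at 762 and 16.2 CPM. Il1b was at 5836 and 1889 CPM, Tnf at 198 and 16.2, the neutrophil chemokine Cxcl2 at 1532 and 136, and Nlrp3, an inflammasome sensor, at 311 and 61.6. Cxcl9 was near equal in monocytes, at 641 and 535 CPM, a ratio of 1.2 (1.01 to 1.43).

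Genes of classical monocytes differed in direction. Chil3, a chitinase-like protein, was at 485 and 2508 CPM, Vcan, the proteoglycan versican, at 87.5 and 538, and Apoe, itself a macrophage marker, at 3601 and 9223. The macrophage marker sum in monocytes was 7891 and 12975 CPM and that of monocyte markers, Chil3 and Vcan among them, 5816 and 8571 CPM, and their part was not tested. Ly6c2 was at 770 and 583 CPM and Plac8 at 2676 and 2557. H2-Ab1 was at 2907 and 885 CPM. In the second pair Chil3 was at 470 and 2273 CPM and Vcan at 79.4 and 224 CPM, while Cxcl2 was near equal at 3533 and 3383 CPM and Il1b at 6110 and 5466 CPM.

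In neutrophils (71 and 87), interferon-linked genes were higher in KO, and inflammatory genes differed in direction. Of 16 genes of the neutrophil inflammatory and tumour state list 3 were 2-fold higher and 1 lower, with a median log2 ratio of 0.26, and of 7 inflammatory cytokine genes 2 were higher and 1 lower, with a median of 0.68. Irf1 was at 258 and 39.7 CPM, a ratio of 6.5 (3.47 to 13.2), with 698 and 79.9 CPM in the second pair. Gbp2 was at 234 and 62.9 CPM and Gbp5 at 156 and 36.4 CPM. Dusp2, a phosphatase of MAP kinases, was at 234 and 16.6 CPM, Il1a at 513 and 72.8, and Icam1, an adhesion molecule, at 414 and 69.5. The chemokine Ccl4 was at 4892 and 1295 CPM. Il1b, at 11708 and 15307 CPM, Cxcl2, at 11823 and 16466 CPM, and Ptgs2, at 673 and 1440 CPM, were lower. Of 8 interferon gamma induced genes, 4 were 2-fold higher and 0 lower, where 6.72% of the 2663 genes counted were higher and 9.84% lower.

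Granule genes in neutrophils rested on few cells. Ngp, a granule protein of immature neutrophils, had 1277 UMIs in KO, from 2 of 71 cells, and 1 UMI in WT. Camp had 620 KO UMIs from 2 cells. Lcn2, at 3642 and 464 CPM, had UMIs in 23 KO and 34 WT cells. The lower genes included Mrc1 (4.1 and 242 CPM), Pdpn (24.6 and 262) and Cd86 (32.8 and 311), which are also macrophage or dendritic genes. Macrophage markers summed to 1677 CPM in KO and 4622 CPM in WT neutrophils, where free RNA would bring 1394 and 3927 CPM, and their part in these differences was not tested. The class II genes summed to 2346 and 950 CPM in neutrophils, beside 1826 and 826 CPM from free RNA.

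In B cells (620 and 192), single genes such as Cd86 and Klf2 were higher in KO, while the activation list as a whole lay near equality and immunoglobulin levels were similar. Cd86 was at 825 and 251 CPM, a ratio of 3.29 (2.85 to 3.81). The nuclear receptors Nr4a1, at 416 and 116 CPM, and Nr4a3, at 105 and 34 CPM, respond to antigen receptor signals. Klf2, which maintains recirculation, was at 1009 and 245 CPM, a ratio of 4.12 (3.56 to 4.78), and Ccr7 at 584 and 175 CPM, a ratio of 3.34 (2.81 to 4). Ighm was at 1424 and 1510 CPM, Ighd at 730 and 671. Pde3b, a phosphodiesterase, was at 889 and 204 CPM, Crem, a factor of the cAMP response, at 292 and 55.8, and the proapoptotic Bcl2l11 at 115 and 17. Hepacam2 was at 82.9 and 8.49 CPM and Vps37b at 753 and 155 CPM.

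Of 18 genes for B activation and differentiation, 3 were 2-fold higher and 1 lower, with 2.09% of the 7662 genes counted higher and 1.06% lower, and the median log2 ratio was 0.09 beside 0.07 for all genes. The member lower was Cr2, the complement receptor CD21, at 159 and 335 CPM. H2-Aa was at 4770 and 3838 CPM, while Ciita was at 107 and 234 CPM. Of 15 interferon gamma induced genes, 4 were higher and 0 lower, with a median of 0.63. Irf1 was at 166 and 49.7 CPM, and Cd274 was lower, at 120 and 222 CPM. Pf4, at 20.4 and 223 CPM, and Cxcl2, at 49.8 and 426 CPM, were the lowest by ratio. In WT B cells those UMIs came from 27 and 29 of 192 cells. Neutrophil markers summed to 23.1 CPM in KO and 616 CPM in WT B cells, and macrophage markers to 2480 and 3462 CPM. Their part was not tested. The second pair gives no comparison for B cells, with 4 in the WT chimera.

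In CD4 T cells (106 and 38), where no list was counted, the named genes differed in both directions. Ccr7, the lymph node homing receptor, was at 484 CPM (68 cells with a UMI) and 46 CPM (6 cells), a ratio of 10.5 (5.45 to 23.3). S1pr1, the receptor for exit from tissue, was at 523 and 128 CPM, a ratio of 4.1 (2.72 to 6.44), Lef1 at 1041 and 388, Satb1 at 975 and 281, and Bach2, a repressor of effector fate, at 1139 and 388. Bcl2, a survival factor, went the other way, at 276 and 1416 CPM. Ccl5 was at 215 and 2458 CPM, a WT to KO ratio of 11.4 (9.29 to 14.1), and Ccl4 had 4 UMIs in KO and 218 in 13 WT cells. Nkg7, a cytotoxic granule protein, was at 179 and 833 CPM, Ifng at 24.6 and 148, and the inhibitory receptors Pdcd1 at 138 and 388 and Ctla4 at 314 and 690. In the second pair Ccr7 was at 428 and 114 CPM, but S1pr1 was at 65.5 and 130 CPM, and Nkg7 at 600 and 399 CPM. Macrophage markers summed to 1765 and 5479 CPM in the CD4 T cells of KO and WT, beside free RNA levels of 1394 and 3927 CPM, and their part in these values was not tested.

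Treg (45 and 15) held similar levels of several effector genes and more of others in KO. Tnfrsf4, the OX40 gene, was at 1615 and 1515 CPM, Ikzf2, the gene of Helios, at 2404 and 2047, and Ctla4 at 1816 and 2163. Icos, a costimulator, was at 1517 and 497 CPM, a ratio of 3.05 (2.22 to 4.28), and Gzmb, granzyme B, at 1289 and 266 CPM, a ratio of 4.85 (3.18 to 7.75). Ifi27l2a was at 2127 and 451 CPM. Ccr7 at 250 and 34.7 CPM came from 11 KO cells and 1 WT cell. Gem had 58 and 1 UMIs and Dusp2 had 80 and 2. With 15 WT cells, a single cell can set a WT level. In Treg the macrophage marker sum was 1339 CPM in KO and 9298 CPM in WT, and their part was not tested.

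In gamma-delta T cells (51 and 43), where no list was counted, the named genes included cycle genes lower in KO and early response genes higher in KO. Stmn1, a tubulin regulator of cycling cells, had 6 UMIs in KO and 165 in WT, 23.3 against 481 CPM, and Top2a had 2 and 73 UMIs. Mki67 was at 15.5 and 123 CPM, with UMIs in 4 and 10 cells. Junb was at 3897 and 1222 CPM, a ratio of 3.19 (2.84 to 3.58), and Ier2 at 792 and 117 CPM. Areg, the growth factor amphiregulin, had 127 UMIs in 17 KO cells and 2 UMIs in WT, a ratio of 84.5 (22.9 to 705). Il17a, the cytokine of one gamma-delta lineage, was at 924 and 729 CPM, a ratio of 1.27 (1.06 to 1.52), and Il23r at 252 and 295 CPM. Gzma had 0 UMIs in KO, and its 279 WT UMIs came from 2 cells. The sum of macrophage markers was 1242 CPM in KO and 2366 CPM in WT, both below the free RNA levels of 1394 and 3927 CPM. Markers of NK cells summed to 295 CPM in KO and 718 CPM in WT, a ratio of 0.411 (0.314 to 0.534), and their part in the lower genes was not tested.

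NK cells (90 and 34) carried similar amounts of the most abundant granzyme and differed in others. Gzmc was at 16029 and 14768 CPM, a ratio of 1.09 (1.06 to 1.12), Gzmd at 5739 and 1377, and Gzmg at 2371 (30 cells) and 251 (3 cells). These granzyme genes lie in 1 cluster and are alike, so their split is uncertain. Gzma was lower at 1791 and 2852 CPM. Irf8 was at 961 and 403 CPM, a ratio of 2.39 (2.05 to 2.79). Ly6a had 91 UMIs in KO and 0 in WT, at least 10.6-fold higher, and Camk4, a calcium-dependent kinase, was at 268 and 32 CPM. Lower were Cd226, an activating receptor, at 46.4 and 196 CPM, the heat shock gene Hspa1b at 16.5 and 132 CPM, and Mki67 at 50.1 and 156 CPM. Klrd1, the CD94 subunit of NK receptors, was at 662 and 1034 CPM.

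CD8 T cells of KO held more effector and activation transcript and less of the naive list. Of 20 cytotoxic genes counted, 10 were 2-fold higher and 2 lower in KO, where 3.88% of the 8340 genes counted were higher and 3.02% lower, with a median log2 ratio of 0.98 beside 0.01 for all genes. Gzmd had 1470 UMIs in 34 of 316 KO cells and 0 in 82 WT cells, at least 106-fold higher, and Gzme 661 UMIs in 25 KO cells and 0 in WT, at least 47.7-fold higher. Prf1, perforin, was at 387 and 99 CPM, a ratio of 3.91 (3.02 to 5.15), and Ifng, the interferon gamma gene, at 161 and 30.8 CPM, a ratio of 5.22 (3.31 to 8.75). Gzma was at 119 and 969 CPM, with the 597 WT UMIs from 3 cells. Penk, the enkephalin precursor, had 368 UMIs in 19 KO cells and 0 in WT, and Myo10 was at 155 and 4.87 CPM from 3 WT UMIs, a ratio of 31.8 (10.8 to 155).

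Of 14 naive and memory genes, 1 was 2-fold higher and 7 lower in KO CD8 T cells, with a median of -0.94. Tcf7, the TCF1 gene, was at 61.9 and 193 CPM and Bcl2 at 538 and 1472. The exception was Ccr7, at 251 and 114 CPM. The receptor response list had 6 of 10 genes higher and 2 lower, with Nr4a3 at 172 and 16.2 CPM higher and Cd69 at 56.9 and 172 CPM lower. Of 18 glycolysis and hypoxia genes, 6 were higher and 0 lower, with a median of 0.91, and of 16 proliferation genes 4 were higher and 0 lower. Of 17 genes for inhibitory receptors and exhaustion, 6 were higher and 0 lower, with Pdcd1, the PD-1 gene, at 435 and 144 CPM and Lag3 at 78.7 and 4.87 CPM from 3 WT UMIs.

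In CD8 T cells the interferon lists lay near equality or below it. Of 20 interferon gamma induced genes, 2 were higher and 0 lower, with a median of 0.1. Of 14 type I interferon induced genes, 0 were higher and 4 lower, with Ifit3 at 14.8 and 64.9 CPM. The MHC class II list had 5 of 7 genes higher and 0 lower. Its genes summed to 2510 CPM in KO and 527 in WT CD8 T cells, where free RNA would bring 1826 and 826 CPM. The lowest named genes in KO were Dab2, Cbr2, Igfbp4, Tmem176b and Itgam, with Dab2 at 25.7 and 252 CPM and UMIs in 28 and 12 cells. Macrophage markers summed to 1894 CPM in KO and 6170 CPM in WT CD8 T cells, beside free RNA levels of 1394 and 3927 CPM, and their part in the lower genes was not tested.

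**Figure D4:**
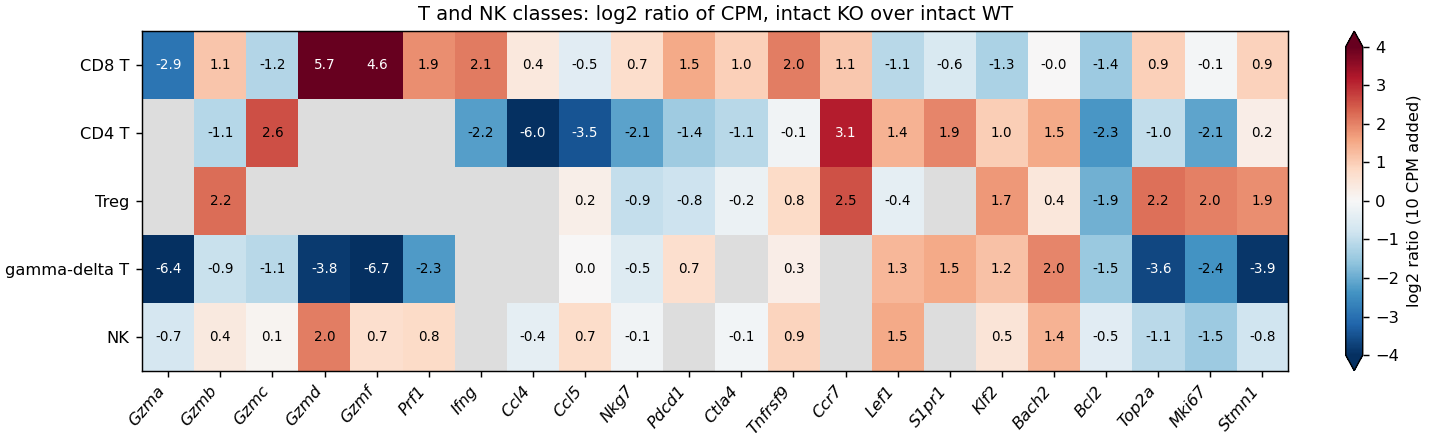
Log2 ratio of intact KO over intact WT (CPM with 10 added) for 22 genes in CD8 T, CD4 T, Treg, gamma-delta T and NK cells, with grey cells where both libraries together have under 30 UMIs. Prf1 and Ifng are positive in CD8 T cells, Ccr7 is positive in CD8 T, CD4 T and Treg cells, and Mki67 is negative in gamma-delta T and NK cells.

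Macrophages differed in the clusters they came from. In WT, cluster 1, led by F13a1 and Fcrls, held 3816 of 5675 macrophages (67.2%), and in KO it held 180 of 4350 (4.14%). In KO, cluster 3, led by Chil3 and Arg1, held 2014 (46.3%) and cluster 7, led by Cxcl9 and Ccl8, held 1556 (35.8%), against 947 (16.7%) and 204 (3.59%) in WT. Clusters were made from these same cells, so the genes that lead them are no separate finding. Cluster 3 held 1 cell of the second pair, and clusters 1, 7 and 14 held 0. Values are also given without cluster 3, which was picked as the macrophage cluster with the most KO cells. Its leading gene Chil3, which is on the monocyte list, also leads clusters 4 and 14, and these were kept. Without cluster 3, macrophages were 35.4% of KO and 70.6% of WT cells, a ratio of 0.501.

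Over all macrophages, Cxcl9 was at 1412 and 130 CPM, a ratio of 10.8 (10.6 to 11), and Ly6a at 388 and 17.2 CPM. Acod1, which makes itaconate, was at 105 and 4.1 CPM, Nrg1, a ligand of ERBB receptors, at 292 and 26, and Nos2, the inducible nitric oxide synthase, at 88 and 9.11. Cd74, the class II invariant chain, was at 15642 and 4255 CPM. Arg1, which depletes arginine, was at 2169 and 1060 CPM, and Spp1, osteopontin, lower at 1761 and 3215. F13a1 was at 94.6 and 1069 CPM, a WT to KO ratio of 11.3 (11.1 to 11.6), Fcrls at 142 and 1047, Cbr2 at 33.4 and 321, and Folr2, a folate receptor, at 41.5 and 243.

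By list, of 23 interferon gamma induced genes 15 were 2-fold higher and 0 lower in macrophages, where 1.75% of the 14914 genes counted were higher and 0.751% lower, with a median log2 ratio of 1.3 beside -0.04 for all genes. Of 21 type I interferon induced genes 9 were higher and 0 lower, of 20 genes of MHC class I and peptide loading 9 and 0, and of 10 MHC class II genes 5 and 0. The resident-type macrophage list had 0 of 15 higher and 11 lower, with a median of -1.38. Without cluster 3, the interferon gamma induced list had 17 of 23 higher, the type I interferon induced list 16 of 21, the MHC class I and peptide loading list 14 of 20 and the MHC class II list 6 of 10. The resident-type macrophage list then had 11 of 14 lower. Of the 14306 genes counted without cluster 3, 305 were 2-fold higher and 100 lower. Without cluster 3 Cxcl9 was at 2292 and 147 CPM and Arg1 at 1343 and 866 CPM. Nos2 was then at 100 and 4.3 CPM and F13a1 at 114 and 1228 CPM.

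The chimera libraries gave the same direction for most of the genes past 2-fold. Of the genes 2-fold higher in intact KO and measured there, 89.7% had a positive log2 ratio in mesenchymal or tumour cells, where 47.6% of all genes did. The shares were 82.5% (all genes 39.5%) in macrophages, 88.7% (56%) in CD8 T cells, 77.4% (55.6%) in neutrophils and 67.1% (55.4%) in cDC. Of the genes 2-fold lower, 98.2% were negative in macrophages (60.5% of all genes), 84.1% (52.4%) in mesenchymal or tumour cells, 77.5% (44.6%) in cDC, 73.3% (44%) in CD8 T cells and 60.7% (44.4%) in neutrophils. A 2-fold difference in the same direction was less frequent, at 36.4% of the higher genes in mesenchymal or tumour cells and 9.4% of the lower genes in neutrophils, where 0.982% and 4.24% of all genes passed it. The interferon gamma induced list had chimera medians of 2.17 in mesenchymal or tumour cells, 1.69 in macrophages, 1.86 in cDC and 3.06 in neutrophils, and of -0.32 in CD8 T cells.

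**Figure D5:**
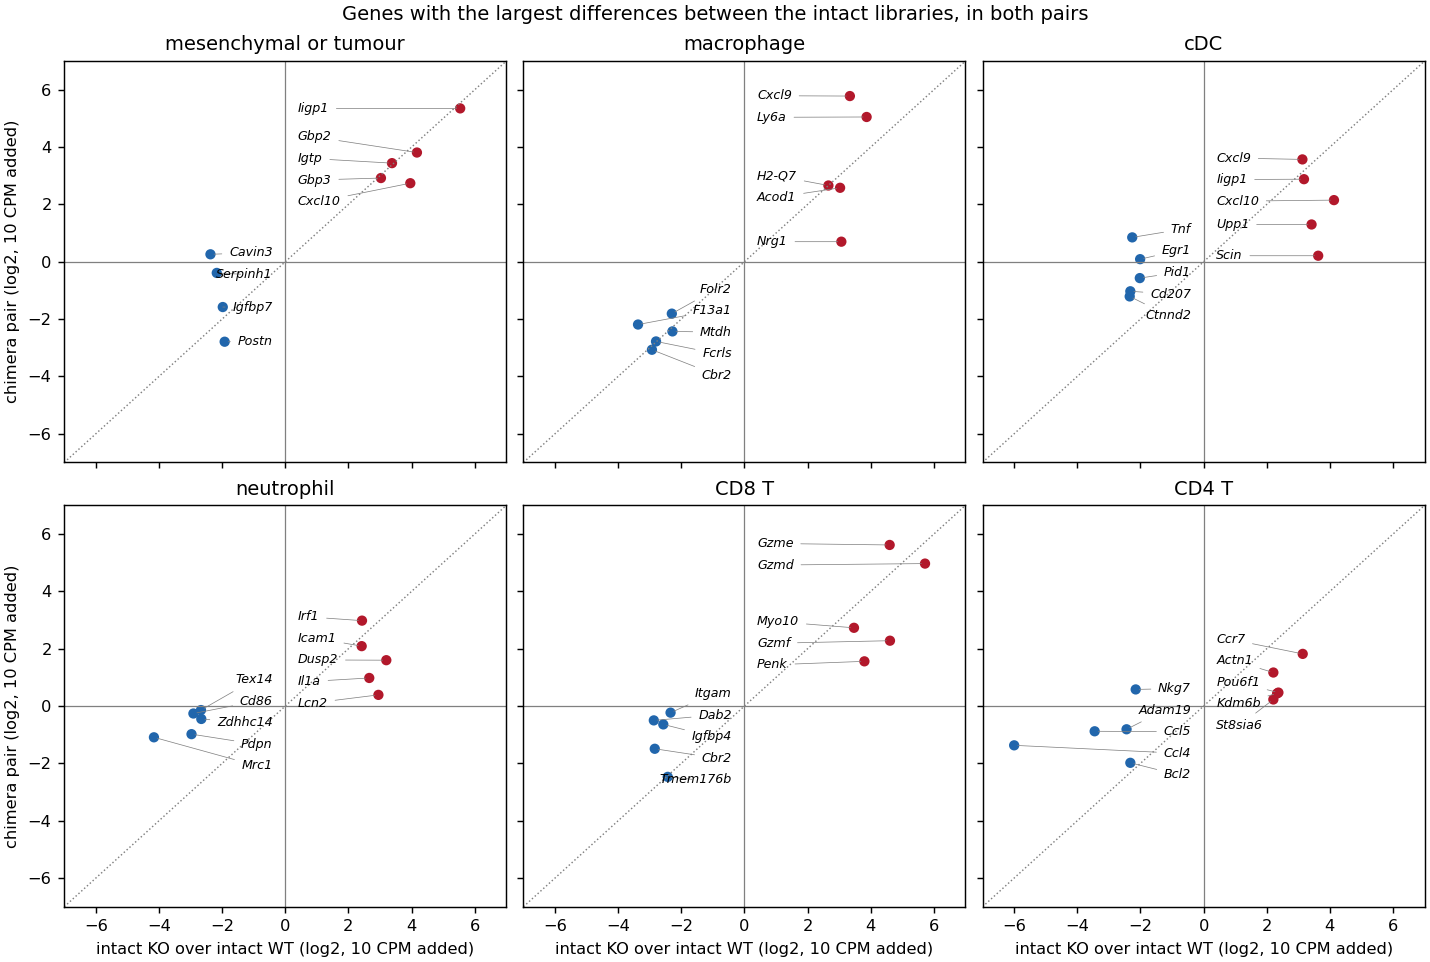
Log2 ratio of KO over WT (CPM with 10 added) in the intact pair (x axis) and in the pair KO marrow in KO host over WT marrow in WT host (y axis) for the named genes of 6 classes, red where higher and blue where lower in intact KO, with a dotted line of equality. Iigp1 and Gbp2 in mesenchymal or tumour cells and Fcrls in macrophages lie near the line, while Scin in cDC and Cavin3 in mesenchymal or tumour cells lie near 0 on the y axis.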

How the data were processed

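Live cells sorted for surface CD45 from dissociated tumours were profiled by droplet 3' RNA sequencing in 6 libraries, 1 per group. The intact KO and intact WT libraries are compared. The deposited matrices hold counts of UMIs per gene and cell for mm10, made by the authors with Cell Ranger 7.0.1 for the intact libraries and 6.1.1 for the 4 marrow chimeras, per the file headers. Seurat is named per the submitters' processing notes. The counting of intron reads was not given in the sources used here. Depth was 122390055 UMIs in intact KO and 142779550 in intact WT.

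Cells with at least 500 UMIs and 200 genes and at most 15% mitochondrial UMIs were kept. Scrublet called no doublet in the intact libraries by its own threshold, so the 6% of cells with the highest scores in each library were removed (421 of KO, 427 of WT). All 6 libraries were clustered with scanpy 1.11.5 (2000 variable genes, 30 components, 20 neighbours, Leiden resolution 1). A cluster took the name of the marker list with the highest score, with a minimum of 0.4, and T and NK clusters were split per cell by marker UMIs. Rules added after the clusters were seen were these: monocyte and macrophage markers count as 1 lineage when a name is checked against a cluster's top 10 genes, a monocyte score of at least 1 is needed to call a cluster monocytes, clusters with both T or NK and myeloid scores stay unnamed, and B cells, plasma cells, plasmacytoid dendritic cells, cDC1 and cDC2 are gated per cell. Members, gene lists and tests were chosen with earlier results of these data known.

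Counts were summed per class and library and written per 1000000 UMIs (CPM). A gene is called 2-fold where the ratio with 10 CPM added passes 2, among genes with at least 30 UMIs. This added amount understates the change of low genes. No p-value was computed, since each side has 1 library, and edgeR 4.0.16 gave only TMM factors for an alternative scaling. Where a library had 0 counts, a fold was taken against a floor of 3 counts per library. The free RNA level of a gene is its CPM over all kept cells of the library times the C1q CPM of T, NK and B cells over the C1q CPM of all kept cells. Named genes are up to 5 per class and direction with the largest ratio (at least 50 UMIs in at least 10 cells, 25 CPM and 3 times free RNA), up to 10 per direction shared by most classes, the 4 most abundant of each list, list members past 2-fold, Mtdh and Snd1. A few genes that this rule picks are not reported here. Ptprc, Epcam, Ly6c2 in monocytes, Gzma in NK cells, and the genes tied to few cells were chosen after their values were seen. The calls and intervals were tried on simulated Poisson counts, which hold no clustering of UMIs in few cells. That trial therefore cannot show how they hold for genes carried by few cells. Alternatives tried were TMM scaling, 1 CPM added, no minimum of UMIs, free RNA taken off, doublets kept, a 10% mitochondrial maximum, Leiden resolution 2, the intact libraries clustered alone, a strict gate, shares outside macrophages and, added after seeing the data, macrophages without cluster 3 and the T and macrophage marker cluster counted with the T and NK cells.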

Additional observations from a re-analysis of the deposited data

Results flagged for a closer look

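Mgl2 in cDC1 was 2-fold lower in intact KO and 2-fold higher in the KO chimera, with log2 ratios of -1.64 and 1.68. It stood at 55.3 and 194 CPM in intact KO and WT and at 147 and 38.7 CPM in KO marrow in KO host and WT marrow in WT host. Tnf in cDC2 likewise had log2 ratios of -3.12 and 1.19, with 4.41 and 115 CPM in the intact pair and 39.7 and 11.9 CPM in the chimera pair. With 1 library a side these differences between pairs were not tested.

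The unnamed cluster with T cell and macrophage markers held 133 intact KO cells, 3 intact WT cells and 0 cells of KO marrow in KO host. With doublets kept, an unnamed cluster with both T or NK and myeloid scores held 273 intact KO and 54 intact WT cells. In the 133 KO cells, Cxcl9 was at 1128 CPM and Mtdh at 22.7 CPM. Macrophage markers summed to 23813 CPM there, beside 29024 CPM in KO macrophages, and T markers to 876 CPM, beside 6038 CPM in KO CD8 T cells.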

How the results depend on the processing

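No paired analysis was possible because each group is 1 library and no replicate numbers exist, and no replicate could be left out for the same reason. Of 91 alternative values of shares, 75 stayed within the counting interval of the reported value, as did 777 of 978 values of named genes. Of 72 counts of genes, 58 stayed within 1.5 times, and of 911 list medians 852 stayed within 0.5 on the log2 scale.

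With shares taken outside macrophages, the log2 ratio of shares was 0.80 for CD8 T, 0.34 for CD4 T, 0.44 for Treg, -0.90 for gamma-delta T, 0.26 for NK, 0.46 for all T and NK, 0.55 for B, -1.44 for neutrophils, 0.95 for monocytes, -0.79 for cDC, -0.87 for cDC1, -0.93 for cDC2, 0.34 for mature DC and -1.27 for mesenchymal or tumour cells. With doublets kept it was -0.43 for mesenchymal or tumour cells, and without cluster 3 it was -1.0 for macrophages.

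With 1 CPM added, the genes called higher and lower numbered 686 and 487 in CD8 T, 435 and 215 in B, 620 and 397 in macrophages, 335 and 455 in cDC and 523 and 557 in mesenchymal or tumour cells, against 324 and 252, 160 and 81, 261 and 112, 168 and 199, and 220 and 111 with 10 CPM added. With no minimum of UMIs, neutrophils had 665 and 825, against 179 and 262. With free RNA taken off, 255 genes were higher in B cells and 281 in neutrophils, where 267 were lower.

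Medians turned for the neutrophil maturity list in CD8 T, to 0.05 with no minimum, and for the resident-type macrophage list in B cells, to 0.34 with free RNA taken off. With free RNA taken off, F13a1 turned to 0.47 in B and 0.07 in mesenchymal or tumour cells, and Fcrls to 0.34 in B and 0.98 in cDC. With doublets kept, Arhgap24 turned to 0.17 in CD8 T. The cause was not tested. Depth limits Treg, mature DC, cDC1, monocytes and NK cells most, with 15 to 34 cells in intact WT.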

Other observations

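Snd1 had a higher level in KO in 4 and a lower level in 8 of the 12 classes. In mesenchymal or tumour cells it stood at 168 and 219 CPM in KO and WT, a ratio of 0.766 (0.71 to 0.827), and in CD8 T cells at 120 and 161 CPM. Macrophages also differed in inflammatory transcripts that the chimera pair did not share in size. Il1b was at 2779 and 1034 CPM in intact KO and WT macrophages and at 3693 and 3760 CPM in the chimera pair. The glycolysis and hypoxia list had a median log2 ratio of 0.72 in intact macrophages, with 3 of 19 genes 2-fold higher, where 1.75% of all genes counted were, and of -0.05 in the chimera pair.

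The lipid uptake and cholesterol list, chosen because the series title names lipid metabolism, had 1 of 28 genes 2-fold higher and 1 lower in macrophages, with a median of 0.14 beside -0.04 for all genes. Of all genes counted, 1.75% were higher and 0.751% lower, so 1 of 28 is near that share.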
